A study of Mus musculus with 8 samples.

Results

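Potassium channels set the resting voltage of cells and let potassium leave or re-enter along its gradient. In hepatocytes and bile duct cells they work with the sodium pump and with chloride channels in cell volume control, bile formation and the electrical drive for nutrient uptake. The Kcn genes cover the tandem-pore (K2P) leak channels, the inward rectifiers, the voltage-gated channels, the channels opened by calcium or sodium, and the accessory subunits that tune them. Kcnk5 encodes the K2P channel TASK-2, a background channel that opens at alkaline outside pH and is best known from the kidney proximal tubule and from volume regulation.

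The members were all genes whose single gene symbol in the platform annotation begins with Kcn. There were 90 such genes among 22180 genes, each followed by its probe set with the highest mean over all arrays. A gene was taken as detected where it lay above the dim limit on at least 4 of the 8 arrays. This limit is the 40th percentile of each array's single-symbol probe sets and ran from 3.46 to 3.50 on the log2 scale. Probe sets that list several genes or none did not enter this percentile. Of the 90 members, 33 were above the limit, which is 36.7%, against 13449 genes or 60.6% of all genes. The members were thus selected on gene symbol, and their probe sets on the mean level over all arrays. Detection rested on the count of arrays above the limit. Genotype labels were not used in this, but a gene can reach 4 arrays mainly through a single genotype. Kcnk5, which heads the family, was chosen by its difference between the genotypes in these same arrays. The values of Kcnk5 are therefore given as a description, and its calls in the fits below are no test of it.

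Liver RNA came from male C57BL/6J mice. The wild type group held 4 arrays of littermate mice, and the knock-in group held 4 arrays of mice carrying the E167K coding variant of Tm6sf2, a protein of lipid export from the liver. The labels disagree on diet, with 20 weeks of high-fat feeding in the series text against 14 weeks of fat-free sucrose feed or chow in the notes of each array, so no result is tied to a diet. The labels give no age, no detail of how the knock-in allele was made, and no statement that arrays stand for different animals. The p-values below then cover only the scatter among these arrays.

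Hepatocyte markers bore out the labelled tissue: all 9 measured markers were above the limit, among them Alb, with a mean level over the list of 12.60 to 12.64 on wild type arrays and 12.64 to 12.68 on knock-in arrays. Array medians over all probe sets lay between 3.73 and 3.80. In whole tissue, a lower value from fewer cells of a type and one from less RNA per cell cannot be told apart.

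The sequences below are the windows around the annotated start sites of the 3 members that had the smallest p-values and an entry in the RefSeq promoter table of GRCm38.p6, shown so that the members described next can be placed in the genome. Each runs 5′ to 3′ on the gene's own strand, from 250 bases before to 50 bases after the start. Capitals mark matches, on either strand, to the E-box CACGTG, the GC box GGGCGG, the CCAAT box CCAAT or the TATA box TATAAA. The Kcnk5 window is chr14:20181733-20182032 (minus strand), the Kcnk1 window chr8:125994852-125995151 (plus strand) and the Kcnq1ot1 window chr7:143296498-143296797 (minus strand).
Kcnk5: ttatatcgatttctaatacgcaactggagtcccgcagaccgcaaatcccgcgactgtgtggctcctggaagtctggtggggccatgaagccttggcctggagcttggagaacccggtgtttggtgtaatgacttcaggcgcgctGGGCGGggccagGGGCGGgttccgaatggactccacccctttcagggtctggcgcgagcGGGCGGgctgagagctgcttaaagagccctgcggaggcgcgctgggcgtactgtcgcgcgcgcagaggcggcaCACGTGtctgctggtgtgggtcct
Kcnk1: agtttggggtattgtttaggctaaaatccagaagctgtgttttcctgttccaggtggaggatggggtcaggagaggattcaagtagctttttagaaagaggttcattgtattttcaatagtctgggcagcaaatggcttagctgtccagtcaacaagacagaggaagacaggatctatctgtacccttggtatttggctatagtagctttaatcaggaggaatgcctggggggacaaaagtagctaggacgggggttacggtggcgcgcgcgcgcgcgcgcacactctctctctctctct
Kcnq1ot1: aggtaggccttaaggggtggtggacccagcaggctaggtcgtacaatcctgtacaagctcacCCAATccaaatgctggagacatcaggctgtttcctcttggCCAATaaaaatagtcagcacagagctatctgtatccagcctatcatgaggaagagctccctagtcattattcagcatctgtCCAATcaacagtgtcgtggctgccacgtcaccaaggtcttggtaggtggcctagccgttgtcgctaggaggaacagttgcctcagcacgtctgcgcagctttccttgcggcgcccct

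The Kcnk5 window held 3 GC boxes and 1 E-box, which starts at base 27 after the start site. The Kcnq1ot1 window held 3 CCAAT boxes, and the Kcnk1 window held 0 matches to these 4 motifs and ended in a run of CT repeats. Of the 33 detected members, 27 had an entry, with 38 windows between them. A GC box was found in 21 of the 38 (55.3%) against 35.7% of all 32851 windows of the same length, a CCAAT box in 28.9% against 37.4%, a TATA box in 5.26% against 13.6%, and an E-box in 5.26% against 7.15%. The 21 windows with a GC box belonged to 19 members. The windows of all genes include those of genes below the dim limit, so detected members were not set against other detected genes. These are matches of letters in a window and say nothing about which factor binds there.

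Kcnk5 stood apart by genotype. Its probe set, 17303722, read 7.33, 7.73, 7.15 and 7.52 on wild type arrays 1 to 4 and 8.86, 9.01, 8.63 and 8.44 on knock-in arrays 1 to 4 (log2 expression). The lowest knock-in array lay above the highest wild type array, and all 8 lay far above the dim limit. The group means were 7.43 ± 0.25 and 8.74 ± 0.25 (SD, n = 4 each), a log2 difference of 1.30, or 2.47-fold. In the fit across all 13449 tested genes, 9 genes (0.0669%) passed the adjusted threshold of 0.05, Kcnk5 among them. Kcnk5 came to head the family in this way, so the call restates the choice and is no test. The call was lost on leaving out any 1 array other than knock-in replicate 4, and the difference then stayed between 1.21 and 1.40.

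**Figure D1:**
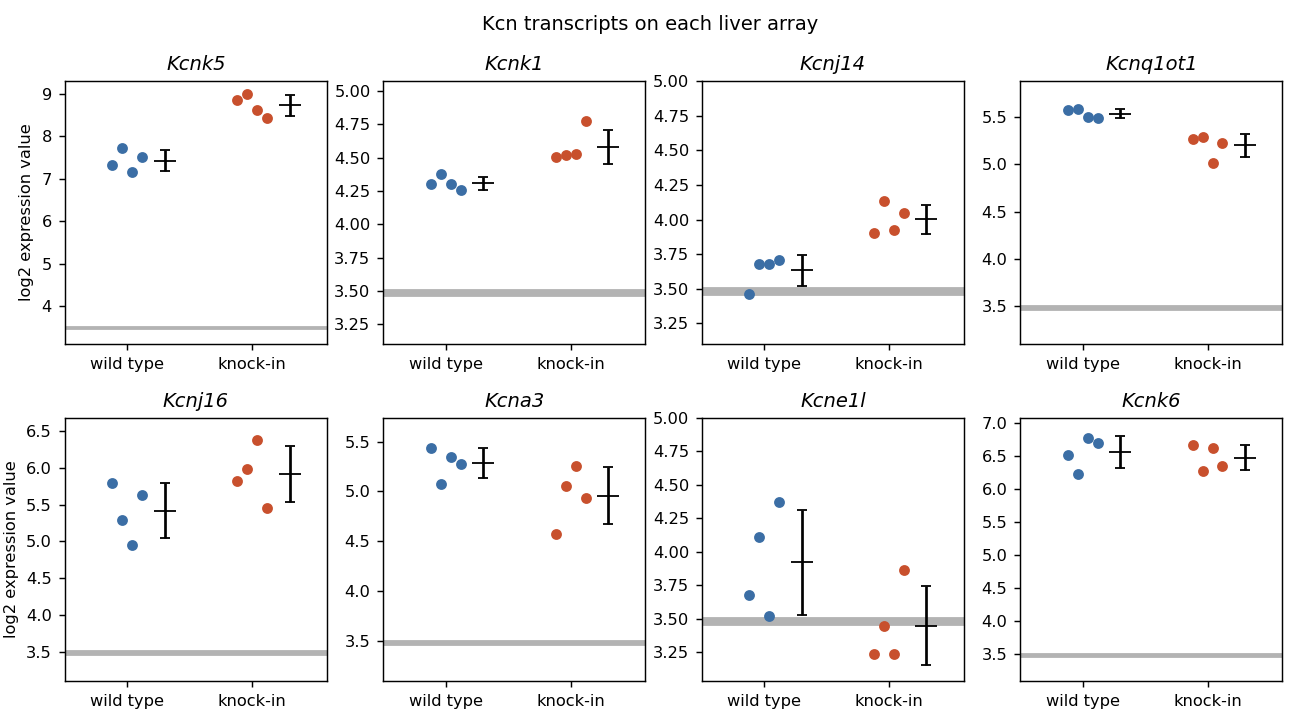
Log2 expression value (vertical axis, scale set per panel and not starting at 0) of 8 Kcn transcripts on each of the 4 wild type (blue) and 4 knock-in (red) arrays; the bar beside each group is mean ± SD, and the grey band spans the dim limits of the 8 arrays (3.46 to 3.50). The groups lie apart in Kcnk5, Kcnk1, Kcnj14 and Kcnq1ot1 and overlap in Kcnj16, Kcna3, Kcne1l and Kcnk6.

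The genes beside Kcnk5 on the chromosome were followed as well. The 10 nearest tested genes in the GRCm38.p6 gene table, 5 on each side, had log2 differences of -0.23 to 0.25 and 95% intervals that included 0. By limma 0 of the 10 passed, where 0.0669% of all genes tested did. At an unadjusted p under 0.05 the count was also 0, against 11.3% over all genes, and a count of 0 among 10 genes lies close to that share. The closest tested neighbour before it, Saysd1, was at 0.25 (SE 0.16, limma adjusted p = 0.617), and the closest after it, Nudt13, at 0.09 (SE 0.10, adjusted p = 0.796). Kcnk16, another K2P channel and the nearest Kcn gene on that chromosome, was below the dim limit on every array, at 2.31 to 3.14.

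**Figure D2:**
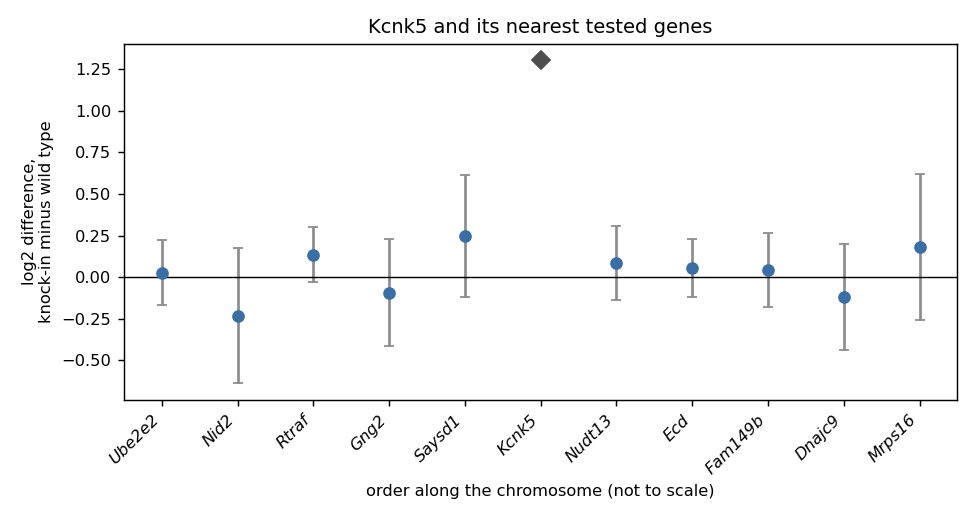
Log2 difference, knock-in minus wild type (vertical axis), for Kcnk5 (diamond, no interval because it was chosen for this difference) and for the 5 nearest tested genes on each side in chromosome order (circles, with 95% intervals from limma). The neighbours lie between -0.23 and 0.25 with intervals that include 0, and Kcnk5 lies at 1.30.

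TASK-2 is known in kidney tubule and in other epithelia, so markers of kidney tubule and of bile duct cells (cholangiocytes) are given beside it. Endothelial markers are given as a further cell type, which is no such epithelium. Of 6 kidney tubule markers, 5 were below the limit, among them Umod, Aqp2 and Slc34a1. The remaining marker, Slc22a12, lay above it on all 8 arrays, at means of 4.17 on wild type and 3.95 on knock-in arrays (difference -0.23, SE 0.12). The list had mean levels of 2.76 to 2.90 on wild type arrays and 2.62 to 2.95 on knock-in arrays. Cholangiocyte markers had mean levels of 3.98 to 4.36 on wild type arrays and 4.12 to 4.42 on knock-in arrays, with 3 of 5 tested members higher, 2 lower and 0 at an unadjusted p under 0.05 (against 11.3% of all tested genes); Cftr and Sctr were below the limit. Endothelial markers were at 8.99 to 9.11 and 9.09 to 9.15, with 4 of 7 tested members higher and 3 lower (Kdr at -0.17, Stab2 at -0.09 and Tek at -0.04). By limma 1 of the 7, Lyve1, had an unadjusted p under 0.05 with a higher value (14.3%, against 6.01% of all tested genes), at a difference of 0.73 (SE 0.23, adjusted p = 0.295). In each of these lists the groups overlapped, and their part in the difference of Kcnk5 was not tested.

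Besides Kcnk5, 4 of the 13 K2P genes were detected, all on 8 of 8 arrays. Kcnk1 encodes TWIK-1, a weak leak channel, and read 4.30, 4.37, 4.30 and 4.26 on wild type and 4.51, 4.52, 4.52 and 4.77 on knock-in arrays. The groups did not overlap, but knock-in replicate 4 lay above the other 3, which were close together. The difference was 0.27 (SE 0.09) and did not pass (limma adjusted p = 0.309). Kcnk6, which encodes the related TWIK-2, was at 6.56 ± 0.24 on wild type arrays and 6.48 ± 0.19 on knock-in arrays (SD, n = 4 each), a difference of -0.08 with a 95% interval of -0.41 to 0.25. The mechanically gated Kcnk10 (TREK-2) differed by 0.02 (interval -0.43 to 0.47) and Kcnk13 (THIK-1), which is known from microglia, by 0.14 (interval -0.36 to 0.63). The other 8 K2P genes (Kcnk2, Kcnk4, Kcnk7, Kcnk9, Kcnk12, Kcnk15, Kcnk16 and Kcnk18) were below the limit.

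Among inward rectifiers, 5 of 14 genes were detected. Kcnj14 encodes Kir2.4, a strong rectifier of the classical Kir2 group, and read 3.47, 3.68, 3.68 and 3.71 on wild type and 3.90, 4.13, 3.93 and 4.05 on knock-in arrays. The groups did not overlap, yet wild type replicate 1 was just below the dim limit and the other 3 just above it. The difference was 0.37 (SE 0.09) and did not pass (limma adjusted p = 0.202). Kcnj16 encodes Kir5.1, which forms channels together with the Kir4.1 subunit encoded by Kcnj10 or the Kir4.2 subunit encoded by Kcnj15. Kcnj16 read 5.79, 5.29, 4.95 and 5.63 on wild type and 5.83, 5.98, 6.38 and 5.46 on knock-in arrays, which overlap (difference 0.50, SE 0.23, adjusted p = 0.456). Its partners were at -0.17 (Kcnj10, SE 0.16) and -0.05 (Kcnj15, SE 0.09), and neither passed the test.

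Kcnj8 encodes the pore of a potassium channel closed by ATP, and Abcc9 encodes the sulfonylurea receptor that surrounds that pore. Kcnj8 was at 6.25 ± 0.13 on wild type arrays and 6.28 ± 0.22 on knock-in arrays, a difference of 0.02 with a 95% interval of -0.26 to 0.31. Abcc9 was at 9.26 ± 0.13 and 9.18 ± 0.08, a difference of -0.08 with an interval of -0.29 to 0.13. The alternative pore and receptor, Kcnj11 and Abcc8, known from the insulin-secreting beta cell, were both below the limit, as were Kcnj1, Kcnj2, Kcnj3, Kcnj4, Kcnj5, Kcnj6, Kcnj9 and Kcnj12.

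In the channels opened by calcium or sodium, 6 of 8 genes were detected and 0 passed. Kcnn2 encodes the small-conductance channel SK2 and read 7.47, 7.18, 7.21 and 7.30 on wild type and 7.64, 7.21, 7.47 and 7.06 on knock-in arrays; the groups lay within one another (difference 0.05, interval -0.26 to 0.37). Kcnn1, which encodes SK1, was at 5.77 ± 0.28 and 6.11 ± 0.24 (SD, n = 4 each), a difference of 0.35 (SE 0.16, limma adjusted p = 0.467). Kcnn4, the intermediate-conductance channel of lymphocytes and secretory epithelia, was at -0.14 (SE 0.20). Its wild type arrays ran from 3.52 to 4.52 and its knock-in arrays only from 4.01 to 4.10. Kcnt2, a sodium-activated channel, had the widest spread of the 33, from 4.50 to 5.65 on wild type arrays and from 4.05 to 5.21 on knock-in arrays (difference -0.12, SE 0.32), and its relative Kcnt1 was detected on 4 arrays only, with 2 of each genotype.

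Kcnma1, the large-conductance channel, had 2 probe sets that disagreed. Both lay near the dim limit and were close in brightness. The brighter, followed here, had group means of 3.59 on wild type and 3.52 on knock-in arrays, and the other 3.35 and 3.71. The brighter differed by -0.07 (SE 0.12 in a fit over all probe sets with 1 symbol). The other differed by 0.36 (SE 0.12, limma unadjusted p = 0.0171, adjusted p = 0.486), so no direction is given for the gene. Its accessory subunits Kcnmb1 and Kcnmb4 were at 0.23 (SE 0.16) and -0.0071 (SE 0.18). Kcnn3 and Kcnu1 were below the limit.

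Of 15 voltage-gated genes of the Kv1 to Kv4 groups, 5 were detected by the rule, among them Kcna4 on a value that its second probe set did not share. Kcna3 encodes Kv1.3, the channel of T lymphocytes, and read 5.44, 5.08, 5.34 and 5.28 on wild type and 4.58, 5.06, 5.26 and 4.94 on knock-in arrays. The groups overlapped, and the difference of -0.33 (SE 0.15) did not pass (limma adjusted p = 0.453). The T and NK cell markers had mean levels of 3.97 to 4.39 on wild type arrays and 3.96 to 4.15 on knock-in arrays. These levels include Cd3d and Klrb1c, which were below the limit. Of the 5 tested members 4 were lower and 1, Nkg7, was higher (difference 0.40, SE 0.30), with 0 at an unadjusted p under 0.05 (against 11.3% of all tested genes). The part of these markers in the value of Kcna3 was not tested. Kcna2 was at 0.06 (SE 0.16), and Kcnc4, near the limit, at -0.05 (SE 0.15). Kcna6, also near the limit, was at 0.21 (SE 0.14), with 1 wild type array and 3 knock-in arrays above the limit. Its second probe set had group means of 2.75 on wild type and 2.63 on knock-in arrays, below the limit. That probe set differed by -0.12 (SE 0.21 in the fit over all probe sets with 1 symbol), so no direction is given for Kcna6.

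Kcna4, which encodes a channel known from heart and brain, was listed at 11.15 to 11.56 on wild type arrays and 11.09 to 11.33 on knock-in arrays on the probe set followed here. Its second probe set had group means of 2.28 and 2.40, below the dim limit. The 2 probe sets lay far apart, one near the top of the values on these arrays and the other below the limit, so the high value was not taken as a level of Kcna4. Their differences were -0.10 (SE 0.12) and 0.12 (SE 0.10), each with a 95% interval that included 0.

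The KCNQ and KCNE genes encode channels and the single-pass subunits that set their gating, and Kcnq1 with Kcne3 forms a cAMP-regulated channel of secretory epithelia. Kcnq1 was at 4.58 ± 0.33 on wild type arrays and 4.76 ± 0.18 on knock-in arrays (difference 0.18, SE 0.17), and Kcne3 at 4.59 ± 0.09 and 4.45 ± 0.16 (difference -0.14, SE 0.10); neither passed. Kcne1l, another KCNE-type subunit, read 3.68, 4.11, 3.52 and 4.37 on wild type and 3.24, 3.45, 3.24 and 3.87 on knock-in arrays. Only 1 of its 4 knock-in arrays lay above the dim limit, so it entered the tested set mainly through the wild type group, and its difference of -0.47 (SE 0.21, adjusted p = 0.443) describes values at the edge of detection. Kcnab2, a beta subunit of Kv1 channels, was at 0.04 (SE 0.19), and Kcnip3, a calcium-binding partner of Kv4 channels, at -0.15 (SE 0.24).

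Kcnq1ot1 is a long non-coding RNA transcribed from the paternal chromosome against Kcnq1, where it keeps neighbouring imprinted genes silent; it enters the family by its symbol and is no channel. It read 5.57, 5.58, 5.50 and 5.48 on wild type and 5.27, 5.28, 5.02 and 5.22 on knock-in arrays. Every knock-in array lay below every wild type array. The difference of -0.33 (SE 0.09) did not pass (limma adjusted p = 0.212). Kcnq1ot1 overlaps Kcnq1 on the opposite strand, and whether the probe sets separate the strands is not given in the sources used here.

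The modifier subunits Kcns3 and Kcnv1, which form no channel alone, were at -0.17 (SE 0.16) and 0.07 (SE 0.17), and the EAG and ERG genes Kcnh1 and Kcnh2 at -0.19 (SE 0.18) and -0.0036 (SE 0.18). All 4 of these lay near the limit, on 4 to 6 arrays above it. The remaining 8 modifiers and 6 EAG and ERG genes were below it, as were Kcnq3, Kcnq5, Kcne1, Kcne2, Kcne4, Kcnrg, Kcnab1, Kcnab3, Kcnip1, Kcnip2, Kcnip4, Kcnmb2 and Kcnmb3, the voltage-gated genes Kcna1, Kcna5, Kcna7, Kcna10, Kcnb2, Kcnc1, Kcnc2, Kcnd1, Kcnd2 and Kcnd3, and the non-coding Kcnd3os.

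Detection of the family had no gap at the limit. Of the 33 detected members, 22 lay above it on all 8 arrays and 11 on 4 to 7. Just inside were Kcna6, Kcnh1 and Kcnt1, above on 4 arrays, with values from 3.01 to 3.98. Just outside were Kcnd3, Kcnd3os, Kcnh5 and Kcnk2, above on 3 arrays, with values from 2.57 to 4.10. Of the 57 members below, 39 lay above the limit on 0 arrays and 18 on 1 to 3.

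**Figure D3:**
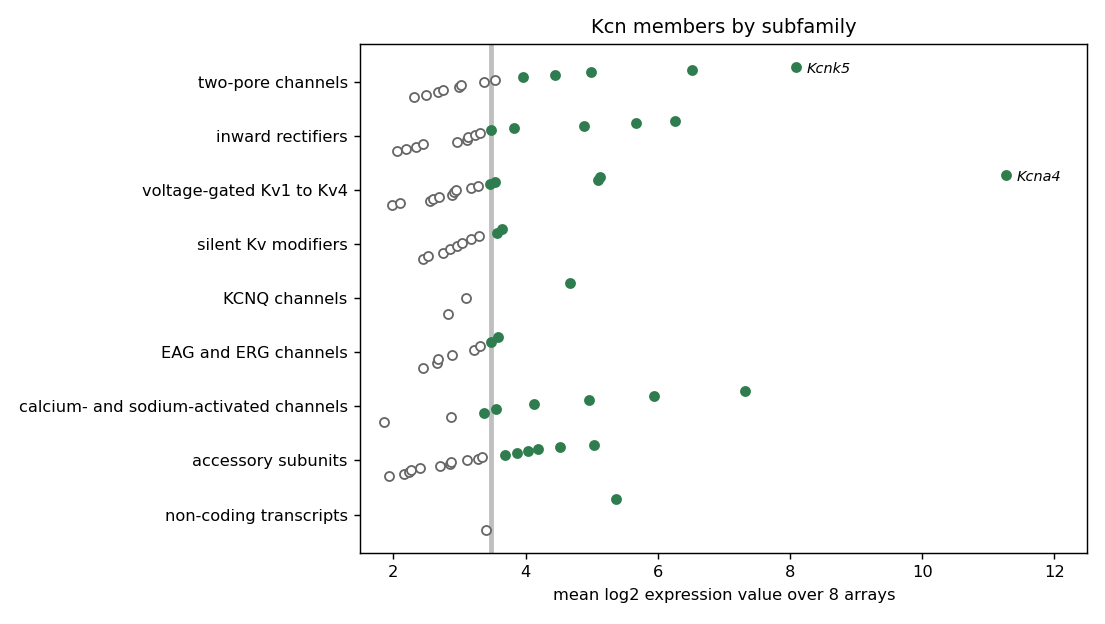
Mean log2 expression value over the 8 arrays (horizontal axis) of the 90 Kcn members, in rows by subfamily; filled points are the 33 members above the dim limit on at least 4 arrays, open points the 57 below, and the grey band spans the dim limits (3.46 to 3.50). Probe sets of different genes differ in brightness for the same amount of RNA, so positions are read against the band and not against one another.

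The detected members had no shared direction. Of the 33, 15 had a difference above 0 and 18 below, with a median of -0.0071 against 0.0046 over all 13449 tested genes. The median size of the difference, whatever its sign, was 0.14 against 0.12 over all genes, and the median SD within groups was 0.25 against 0.19. Without Kcnk5, 0 of 32 members passed the adjusted threshold in limma, and 3 had an unadjusted p under 0.05 (9.38%, against 11.3% of all tested genes). These 3, Kcnj14, Kcnq1ot1 and Kcnk1, were also the only other members in which the genotypes did not overlap (9.38%, against 7.16% of all tested genes). These shares are close to those of all genes.

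**Figure D4:**
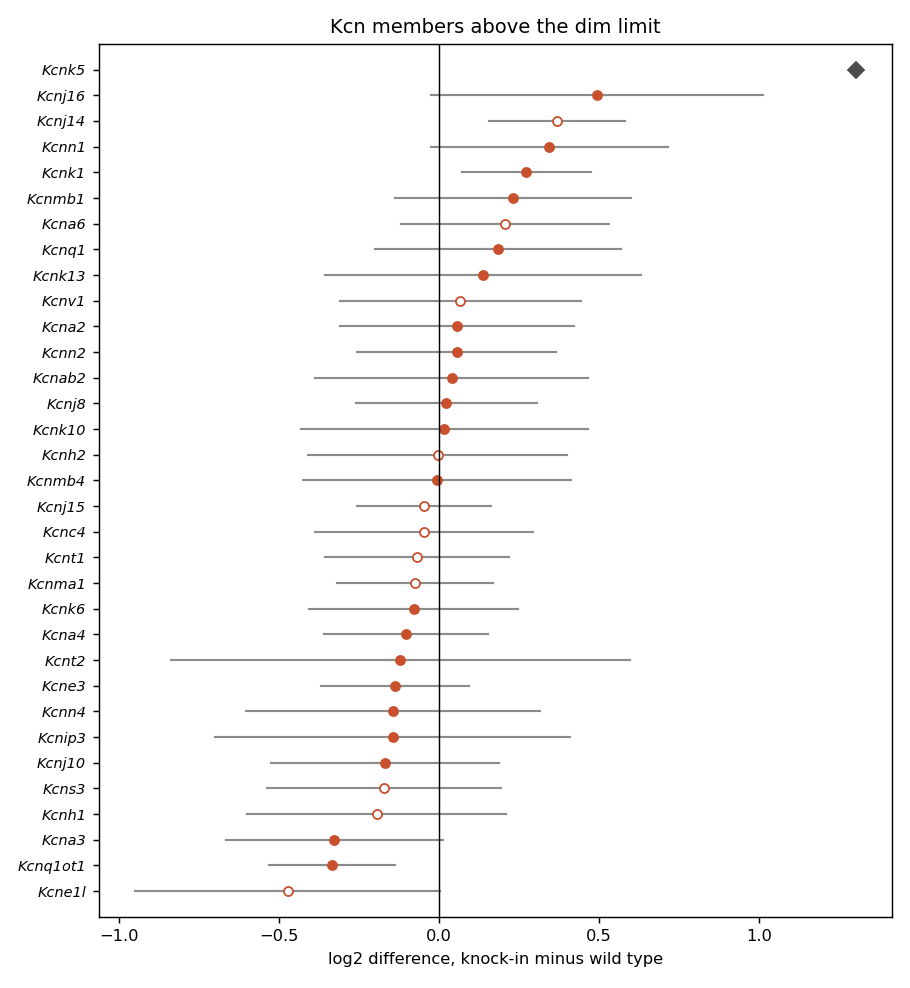
Log2 difference, knock-in minus wild type (horizontal axis), of the 33 detected Kcn members in order of their value, with 95% intervals from limma (bars); filled circles were above the dim limit on all 8 arrays and open circles on 4 to 7. Kcnk5 (diamond) is drawn without an interval because it was chosen for this difference; it lies at 1.30, and the next value, of Kcnj16, at 0.50.

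Proteins that move potassium or work beside these channels were followed as a separate list of 49 genes, of which 43 were measured under a single symbol and 24 were detected. By limma 0 of 24 passed, 2 had an unadjusted p under 0.05 with a higher value in the knock-in (8.33%, against 6.01% of all tested genes in that direction) and 1 with a lower one (4.17%, against 5.29%). The median difference was 0.11, against 0.0046 over all tested genes. Of the 24, 16 had a difference above 0 and 8 below, where 6877 of all 13449 tested genes were above 0.

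Atp1b1 encodes a beta subunit of the sodium pump, which brings potassium back into the cell. It read 9.70, 9.41, 9.86 and 9.72 on wild type and 10.12, 10.48, 10.02 and 10.05 on knock-in arrays. The groups did not overlap (difference 0.49, SE 0.14, limma adjusted p = 0.242). The other detected beta subunits, Atp1b2 and Atp1b3, were at 0.14 (SE 0.18) and 0.08 (SE 0.12), and their groups overlapped. Of the pump's alpha subunits on the list only Atp1a4 was measured, and it was below the limit. Tmem38b, a potassium-permeable channel of the endoplasmic reticulum membrane, read 7.69, 7.71, 7.40 and 7.31 on wild type and 7.96, 7.92, 7.93 and 7.92 on knock-in arrays. The knock-in arrays lay close together and above every wild type array (difference 0.41, SE 0.11, adjusted p = 0.216).

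Lrrc8d, a subunit of the volume-regulated anion channel that opens beside potassium channels when a cell swells, was at 5.38 ± 0.09 on wild type arrays and 5.11 ± 0.14 on knock-in arrays. Its difference of -0.27 (SE 0.10, adjusted p = 0.340) became 0.0089 when the gene's probe sets were averaged, so it has no settled direction. The required subunit Lrrc8a was at 0.19 (SE 0.10). The cotransporters that carry potassium with chloride, Slc12a2 into the cell and Slc12a4 and Slc12a7 out of it, were at -0.04 (SE 0.11), 0.08 (SE 0.17) and -0.04 (SE 0.11), and none passed the test.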

How the data were processed

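The authors deposited 1 table of normalized log2 values for 8 GeneChip whole-transcript arrays, each hybridised with biotinylated cDNA from 400 ng of RNA per the labels' protocols. The submitters' processing notes name RMA and limma, without versions. RMA makes arrays nearly equal in distribution and compresses changes of dim and very bright probe sets. The sources used here give neither the array's genome build nor its annotation version.

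Of 41345 probe sets, 23521 have 1 gene symbol, 1814 several, and 16010 no listed gene. The 97 with a single Kcn symbol gave 90 genes. Knock-in and wild type (4 arrays each) were compared over all 13449 genes above the dim limit by limma's lmFit and eBayes (version 3.58.1, R 4.3.3), with a single genotype term, two-sided p-values, Benjamini-Hochberg adjustment over those genes and a threshold of 0.05. The fit was also run on simulated independent values, which checks the code and not the differences reported here. Differences are knock-in values minus wild type values (log2), with the model's SE. There is no read depth; the number of arrays limits the precision.

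Named by rule were Kcnk5, members and partners with an unadjusted p under 0.05, detected K2P genes, channels described in liver cells, up to 3 further members of each subfamily, members beside the limit and the neighbours of Kcnk5. Abcc8, Abcc9, Lrrc8a, the 3 cotransporters and the other members were added after values were seen. Members, lists and tests were chosen with earlier results of these data known. Alternatives were 2 other limits, no filter, the mean of probe sets, a further quantile normalization, a trended and robust prior, array weights, a replicate block and leaving out each array.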

Additional observations from a re-analysis of the deposited data

Results flagged for a closer look

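Within the 66 groups of 4 arrays formed by the 33 detected members, 3 held an array whose gap to the nearest of the others, as a share of the group's range, exceeded Dixon's 95% critical value for groups of that size (shares of 0.855 to 0.962); a limit at that level is passed by chance in about 1 in 20 groups. Kcnt2 was at 4.05 on knock-in replicate 1 and at 5.16 to 5.21 on the others. Kcnk1 was at 4.77 on knock-in replicate 4 and at 4.51 to 4.52 on the others. Kcnj14 was at 3.47 on wild type replicate 1, just below the dim limit, and at 3.68 to 3.71 on the others.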

How the results depend on the processing

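The number of Kcn genes above the dim limit was 33; it fell to 17 at the 50th percentile, which leaves out Kcnj14, and rose to 46 with the percentile taken over all probe sets. Kcnk5 passed the threshold in 6 of 15 alternative fits. It was chosen for its difference in these same arrays, so that count describes the choice and is no test of Kcnk5. By limma, 0 Kcn genes passed with no filter on dim genes (7 at unadjusted p under 0.05) and with the replicate block (5 at unadjusted p under 0.05), and 0 to 1 passed on leaving out 1 array, with 4 to 7 at unadjusted p under 0.05; the 7 came without wild type replicate 3. No Kcn gene other than Kcnk5 passed in any of the 15 fits. The difference of Lrrc8d turned to 0.0089 with the mean of probe sets. Kcnk5, Kcnk1, Kcnj14 and Kcnq1ot1 kept their direction in each fit that held them, with Kcnk5 at 1.21 to 1.40, Kcnk1 at 0.21 to 0.30, Kcnj14 at 0.31 to 0.41 and Kcnq1ot1 at -0.36 to -0.27. With the trended and robust prior, Kcnk1 no longer had an unadjusted p under 0.05 and Kcnj16 did. The cause of the lost calls was not tested. Same-numbered arrays of the 2 genotypes correlated at -0.11 to 0.10 in their deviations from group means, so the numbers were not taken to pair the arrays. Signal near the dim limit bounds what can be said of the 11 members above it on only 4 to 7 arrays.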

Other observations

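Kcnk3, which encodes the K2P channel TASK-1, was measured only by probe sets shared with Gm9899 and therefore was no member. One of these lay above the dim limit on all 8 arrays, at group means of 3.89 for wild type and 4.20 for knock-in arrays, and the other on 0 arrays, at 3.13 and 3.14. The probe sets shared by Kcnj13 with Gigyf2 and by Kcnmb4 with Kcnmb4os1 were above the limit on 0 arrays. The smooth muscle markers, whose cells carry Kcnmb1, had mean levels of 4.78 to 5.58 on wild type arrays and 4.92 to 5.90 on knock-in arrays, with 5 of 6 tested members higher and 1, Smtn, lower by limma (difference -0.21, SE 0.12). Of the 6, Lmod1 had an unadjusted p under 0.05 (16.7% with a higher value, against 6.01% of all tested genes). Its difference was 0.46 (SE 0.15), and it entered the tested set mainly through the knock-in group, with 1 wild type array and 4 knock-in arrays above the dim limit. Stellate cell and pericyte markers, whose cells carry Kcnj8 and Abcc9, were at 7.25 to 7.49 and 7.26 to 7.48. Kupffer cell markers were at 8.09 to 8.95 and 8.01 to 8.72, and markers of Schwann cells and neurons at 3.22 to 3.58 and 3.18 to 3.60, with 4 of 5 below the limit.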
